A study of Mus musculus with 16 samples.

Results

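The genes described here encode co-receptors and signalling proteins that act beside the Toll-like receptors. They are Cd14, Ly96, Myd88, Ticam1, Ticam2, Irak1, Irak2, Irak3, Irak4 and Traf6. They were taken by name from the deposited gene count table, and all 10 of the 10 genes were found among its 24421 rows. RNA was sequenced from CD11b+ cells enriched from the brains of C57BL/6J mice. By the methods of the study these were females, newly weaned when the diets began. CON mice ate standard chow for 1 month after weaning (4 libraries). MAL mice ate an isocaloric diet low in protein and fat for the same month (5 libraries), and MAL-BG mice ate that diet and were also given a mix of E. coli and Bacteroidales by oral gavage (7 libraries). CON and MAL mice were gavaged with PBS alone. MAL-BG therefore differs from MAL by the bacteria and from CON by both diet and bacteria, and no library represents bacteria with standard chow. Replicate numbers below are those of the columns in the table.

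Toll-like receptors on the surface and in the endosomes of microglia and other myeloid cells recognise microbial molecules. Bacterial lipopolysaccharide reaches Tlr4 through the co-receptors Cd14 and MD-2, the product of Ly96. Signals then leave most of these receptors through the adaptor Myd88 and the Irak kinases to the ubiquitin ligase Traf6, while Tlr3 and Tlr4 can also use the adaptor Ticam1, known as TRIF, which Tlr4 reaches through Ticam2, known as TRAM.

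MAL-BG cells held less Cd14 transcript than CON and MAL cells and less Ticam1 transcript than CON cells, and none of the other 8 genes was differentially expressed in any comparison. Cd14 fell 2.04-fold against CON and 1.71-fold against MAL, and Ticam1 fell 1.503-fold against CON. Irak4 levels were 1.41-fold those of CON in MAL-BG cells, with an adjusted p that passed and a fold below the threshold of the study. A differentially expressed gene (DEG) had a Benjamini-Hochberg adjusted p under 0.05 over all 14565 genes tested, by edgeR's quasi-likelihood test, and an absolute log2 fold change above 0.58. By that rule 2 of the 10 genes were DEGs between MAL-BG and CON, both lower, against 33.1% of all genes tested (21.7% lower and 11.4% higher). Between MAL-BG and MAL, 1 of the 10 was a DEG, lower in MAL-BG, against 30.4% of all genes tested (20.2% lower), and between MAL and CON it was 0 of the 10, against 0.00%. For a list of 10 genes these shares lie near the background, and no difference from it was tested. Their median absolute log2 fold change was 0.19 for MAL-BG against CON, where that of all genes was 0.46, and 0.19 for MAL-BG against MAL, where that of all genes was 0.43.

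Total counts ran from 10312703 to 13461574 in CON, from 10864121 to 12819982 in MAL and from 14191791 to 18705202 in MAL-BG, so every MAL-BG library was deeper than every CON and MAL library. All 10 genes passed the filter on low counts, with 58 to 17029 counts per library. All 10 microglia markers were detected in every library, and their summed level was 16800 to 27500 counts per 1000000 (CPM) in CON, 17470 to 29780 CPM in MAL and 36850 to 50300 CPM in MAL-BG. Genes of the choroid plexus, the epithelium that makes cerebrospinal fluid, summed to 13610 to 52870 CPM in CON, 6300 to 41590 CPM in MAL and 1739 to 16180 CPM in MAL-BG. Between MAL-BG and CON, 6 of 10 microglia genes and 8 of 9 neutrophil genes rose. In the same comparison 5 of 5 choroid plexus genes, 5 of 6 neuron genes and 4 of 5 astrocyte genes fell. Neutrophil genes summed to 481 to 1223 CPM in CON and 515 to 1083 CPM in MAL. In MAL-BG they summed to 584 to 13400 CPM with a median of 1090 CPM. Only MAL-BG replicates 2, 5 and 7 lay above every CON library in that sum. Most of the sum in CON and MAL was Csf3r, the neutrophil gene that was not a DEG. Csf3r was at 604 ± 348 CPM in CON, 589 ± 117 CPM in MAL and 458 ± 162 CPM in MAL-BG (SD). The sum therefore does not show in which MAL-BG libraries the other 8 neutrophil genes were raised. Of 5 endothelium genes 2 rose, with sums of 416 to 1440 CPM in CON, 377 to 1075 CPM in MAL and 906 to 2990 CPM in MAL-BG, and of 5 oligodendrocyte genes 3 rose. Of 8 monocyte genes 2 fell, of 4 lymphocyte genes tested 1 rose, and of 6 border macrophage genes none was a DEG. In these bulk samples fewer cells of a type and less RNA per cell cannot be told apart, and the part of this difference in cell makeup in the results below was not tested.

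Per kilobase of exon, the genes spanned a wide range of levels. In CON, Cd14 had a mean of 494 ± 176 CPM per kilobase (SD, n = 4). Myd88 followed at 42.8 ± 7.16, Irak1 at 32.0 ± 7.32, Irak2 at 25.1 ± 6.43, Ticam1 at 15.6 ± 2.11 and Ly96 at 11.2 ± 3.62 CPM per kilobase. The lowest 4 were Irak4 at 5.20 ± 0.676, Ticam2 at 4.96 ± 0.760, Traf6 at 4.49 ± 1.07 and Irak3 at 1.94 ± 0.529 CPM per kilobase. Cd14 stood apart from Myd88 with no overlap of libraries in any group. Neighbours whose ranges over the CON libraries overlapped were Myd88 and Irak1, Irak1 and Irak2, Ticam1 and Ly96, and Irak4, Ticam2 and Traf6 in turn. Within every single CON library, Myd88 still lay above Irak1, Irak1 above Irak2 and Ticam1 above Ly96. The order of Irak4, Ticam2 and Traf6 changed from library to library and was not resolved. The order of the means was the same in MAL. In MAL-BG Ly96 (12.6 ± 3.86 CPM per kilobase) stood before Ticam1 (10.4 ± 1.65 CPM per kilobase), and the 2 overlapped. Irak3, which is known as IRAK-M and restrains the pathway in myeloid cells, was the lowest in all 3 groups.

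**Figure D1:**
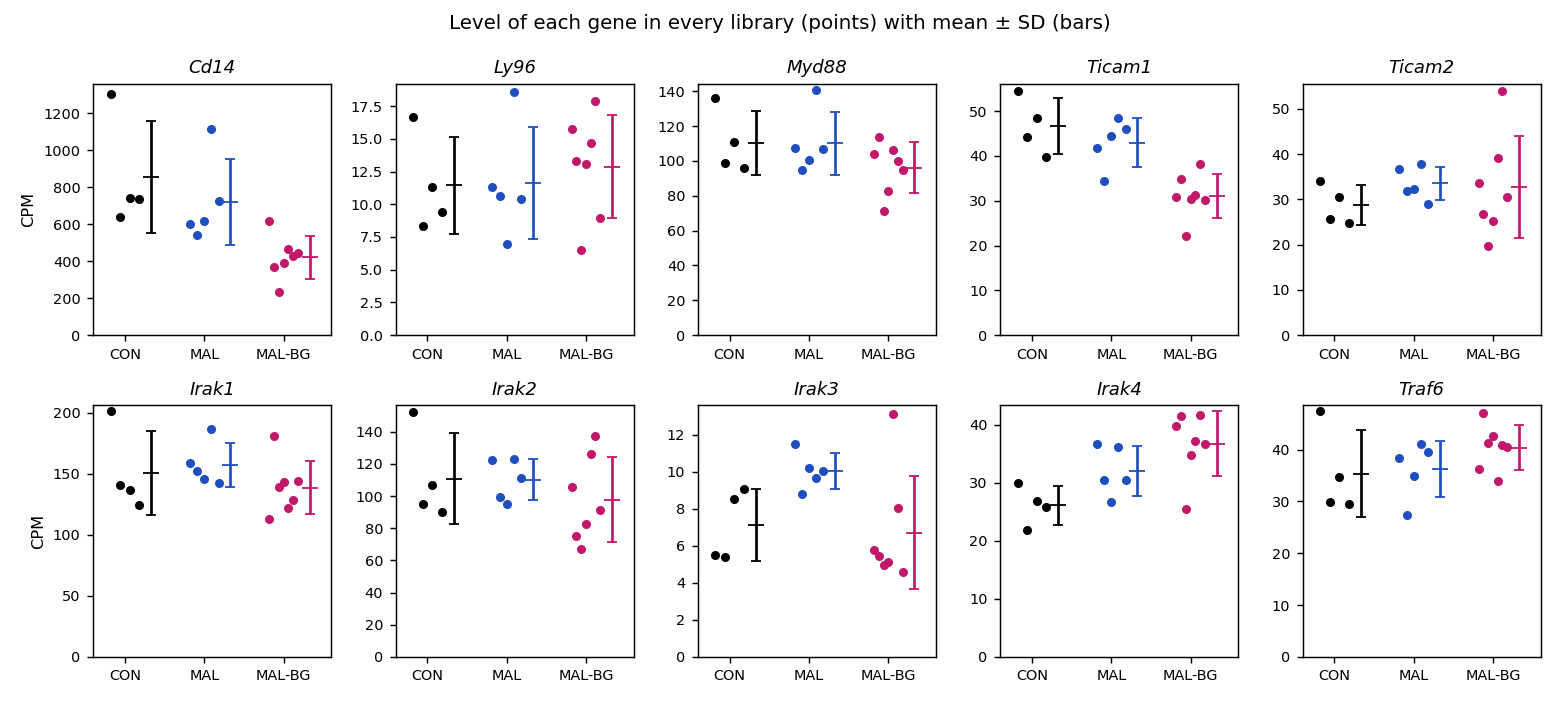
CPM (y axis, starting at 0) of each gene in every library, by group (x axis), with the mean and SD beside the points. For Cd14 and Ticam1 the 7 MAL-BG libraries lie below the 4 CON libraries, and for the other 8 genes the groups overlap.

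Cd14, the co-receptor on the cell surface that hands lipopolysaccharide to Tlr4, lies on chromosome 18. It was measured at 1308, 637, 742 and 736 CPM in CON replicates 1 to 4. In MAL replicates 1 to 5 it was 601, 539, 617, 1115 and 726 CPM, and in the 7 MAL-BG libraries it ranged from 233 to 617 CPM with a median of 426 CPM. Every MAL-BG library was below every CON library, and 6 of 7 were below every MAL library. The log2 fold change was -1.03 (SE 0.245, adjusted p = 0.00307, edgeR) for MAL-BG against CON and -0.78 (SE 0.232, adjusted p = 0.0125) for MAL-BG against MAL. CON and MAL-BG libraries likewise did not overlap for 11.1% of all genes tested with MAL-BG lower, and for 9.83% with MAL-BG higher. CON replicate 1 and MAL replicate 4 had the highest Cd14 of their groups. Without MAL replicate 4 the log2 fold change against MAL was -0.57 (adjusted p = 0.0466), under the fold threshold. Without both libraries it was -0.67 against CON, still a DEG, and -0.51 against MAL, not a DEG; this pair was chosen after the data were seen.

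Those same 2 libraries also had the highest summed level of 6 early response genes (Fos, Jun, Egr1, Atf3, Dusp1 and Ier2, which cells switch on within minutes of a stimulus). The sum was 22260 CPM in CON replicate 1 and 11008 to 12457 CPM in the other CON libraries. In MAL it was 27450 CPM in replicate 4 and 12047 to 18409 CPM in the other libraries, and in MAL-BG it was 4526 to 13010 CPM. Of the 6 genes, 4 fell in MAL-BG against CON and 5 against MAL. Over the 16 libraries Pearson's r between the log2 levels of Cd14 and that sum was 0.787, and 0.676 once each group's mean was taken out. CON replicate 1 and MAL replicate 4 were extreme in other marker sums too. Within their groups they had the highest sums of microglia, neutrophil and border macrophage genes. Their sums of monocyte, neuron, astrocyte, endothelium and choroid plexus genes were the lowest. Border macrophage genes summed to 525 CPM in CON replicate 1 and 629 CPM in MAL replicate 4. With Cd14 they gave an r of 0.545, and 0.693 within groups. Other marker sums went with Cd14 as closely. For endothelium genes r was -0.853, and -0.785 within groups, and for astrocyte genes it was 0.398, and -0.821 within groups. For microglia genes it was -0.483, and 0.735 within groups, so the libraries richer in microglia genes within a group held more Cd14. The libraries share their depth and cell makeup, these values are descriptions, and the part of any of these lists in the Cd14 difference was not tested.

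**Figure D2:**
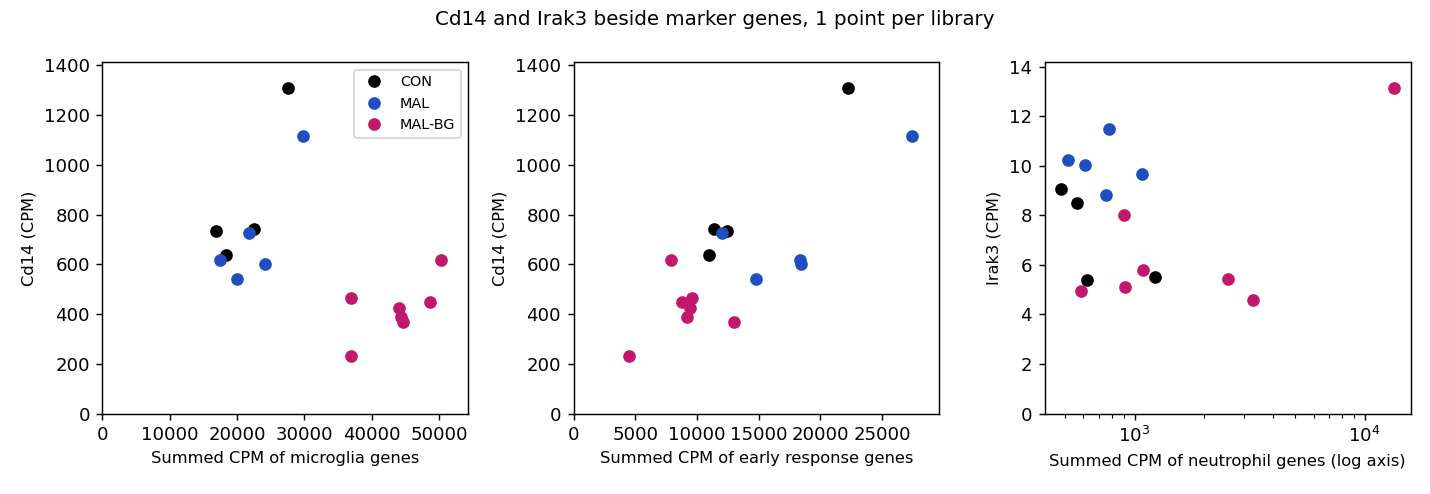
Cd14 level (y axis, CPM) against the summed CPM of 10 microglia genes (left) and of 6 early response genes (middle), and Irak3 level against the summed CPM of 9 neutrophil genes (right, log axis), 1 point per library. The MAL-BG libraries lie at high microglia sums and low Cd14, although within groups Cd14 and the microglia sum went together (r = 0.735), and CON replicate 1 and MAL replicate 4 lie highest for both Cd14 and the early response genes.

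Ly96 (chr1:16688051-16709611, plus strand, GRCm38) encodes MD-2, which binds lipopolysaccharide together with Tlr4. It ranged from 8.35 to 16.7 CPM in CON, 6.97 to 18.6 CPM in MAL and 6.48 to 17.9 CPM in MAL-BG. The groups overlapped throughout. MAL-BG gave a log2 fold change of 0.17 (95% interval -0.43 to 0.77, adjusted p = 0.646) against CON and of 0.15 (95% interval -0.41 to 0.71, adjusted p = 0.662) against MAL. With a correction for gene length and GC content both estimates turned negative, at -0.20 and -0.16. The co-receptors thus differed in their values: the ratio of Cd14 CPM to Ly96 CPM within a library, not corrected for length, was 65.4 to 78.5 in CON, 50.6 to 88.6 in MAL and 23.8 to 49.8 in MAL-BG. The MAL-BG ratios lay below all CON and MAL ratios, which is a description without a test. Cd14 alone already lay below every CON library in MAL-BG, and the share of all gene pairs whose ratios separate likewise was not computed.

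Myd88 (chr9:119335934-119341411, minus strand) is the adaptor of most Toll-like receptors and of the interleukin-1 receptor family. It ranged from 95.8 to 136 CPM in CON, 94.5 to 141 CPM in MAL and 71.2 to 114 CPM in MAL-BG. The groups overlapped, with MAL replicate 4 the highest of all libraries and MAL-BG replicate 3 the lowest. The estimates for MAL-BG were -0.20 on the log2 scale against CON (95% interval -0.50 to 0.09, adjusted p = 0.252) and -0.20 against MAL (95% interval -0.47 to 0.08, adjusted p = 0.230). Exons of Myd88 overlap those of Acaa1a on the opposite strand over 290 bp, and whether the counting used strand is not given in the sources used here.

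Ticam1 (chr17:56269319-56276786, minus strand) encodes TRIF, the adaptor through which Tlr3 and Tlr4 reach interferon genes. Its levels were 54.5, 44.2, 48.4 and 39.7 CPM in CON replicates 1 to 4 and 41.7, 34.4, 44.4, 48.4 and 45.9 CPM in MAL replicates 1 to 5. In MAL-BG they ranged from 22.1 to 38.2 CPM with a median of 30.8 CPM. All 7 MAL-BG libraries lay below all CON libraries, as was so for 11.1% of all genes tested. Of the 7 MAL-BG libraries, 5 lay below all MAL libraries. The log2 fold change was -0.59 (SE 0.135, adjusted p = 0.00237, edgeR) for MAL-BG against CON, just past the threshold of 0.58. Against MAL it was -0.47 (SE 0.127, adjusted p = 0.00725), past the adjusted p but not the fold threshold, and with fold set aside 44.3% of all genes tested passed in that comparison (24.1% lower). The DEG call against CON was lost, with values of -0.52 to -0.58 and adjusted p between 0.00220 and 0.0152, without CON replicate 1 or 3 or without MAL-BG replicate 1, 2, 3, 4 or 7. Without CON replicate 1 and MAL replicate 4 together it was -0.42 (adjusted p = 0.0277), not a DEG.

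The stretch upstream of the RefSeq start of Ticam1 is shown because Ticam1 was a DEG. Cd14, the other DEG, was not among the genes whose windows were searched. Capitals in the Ticam1 stretch mark a match to GAGGAA, letters that the myeloid factor PU.1 binds. The stretch lies at chr17:56276787-56277017 on GRCm38.p6 and is given 5′ to 3′ on the minus strand.
Ticam1: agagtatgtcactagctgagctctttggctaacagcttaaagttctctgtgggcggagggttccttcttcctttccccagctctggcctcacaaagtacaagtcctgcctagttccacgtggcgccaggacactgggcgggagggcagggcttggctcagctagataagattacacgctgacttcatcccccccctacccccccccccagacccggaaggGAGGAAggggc
The last 19 bases before the RefSeq start lie inside the annotated gene and are not printed, and the match begins 30 bases before that start. GAGGAA occurs on either strand in the 250 bases before the start in 23.3% of 32851 RefSeq windows, so the match describes the letters only.

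Ticam2, on chromosome 18, encodes TRAM, which links Tlr4 to Ticam1. It ranged from 24.7 to 34.1 CPM in CON, 29.0 to 37.8 CPM in MAL and 19.7 to 53.8 CPM in MAL-BG. The MAL-BG libraries reached both below and above the other groups, with MAL-BG replicate 6 the highest. On the log2 scale Ticam2 differed by 0.19 (95% interval -0.25 to 0.62, adjusted p = 0.488) for MAL-BG against CON and -0.04 (95% interval -0.44 to 0.37, adjusted p = 0.889) against MAL. The SD of Ticam2 was 34.4% of its mean in MAL-BG, against 15.3% in CON and 10.9% in MAL. Exons of Ticam2 share 838 bp with Tmed7 on the same strand, 14.5% of its exon length, so its count is uncertain. The ratio of Ticam2 CPM to Ticam1 CPM was 0.579 to 0.630 in CON, 0.631 to 0.926 in MAL and 0.769 to 1.41 in MAL-BG, and that of Ticam1 to Myd88 was 0.40 to 0.448, 0.344 to 0.441 and 0.293 to 0.383. The MAL-BG libraries held the highest Ticam2 ratios and the lowest Ticam1 ratios. The CON and MAL-BG ranges did not overlap for either ratio, while those of MAL and MAL-BG did. Ticam1 alone already lay below every CON library in MAL-BG, and the share of gene pairs that separate likewise was not computed.

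**Figure D3:**
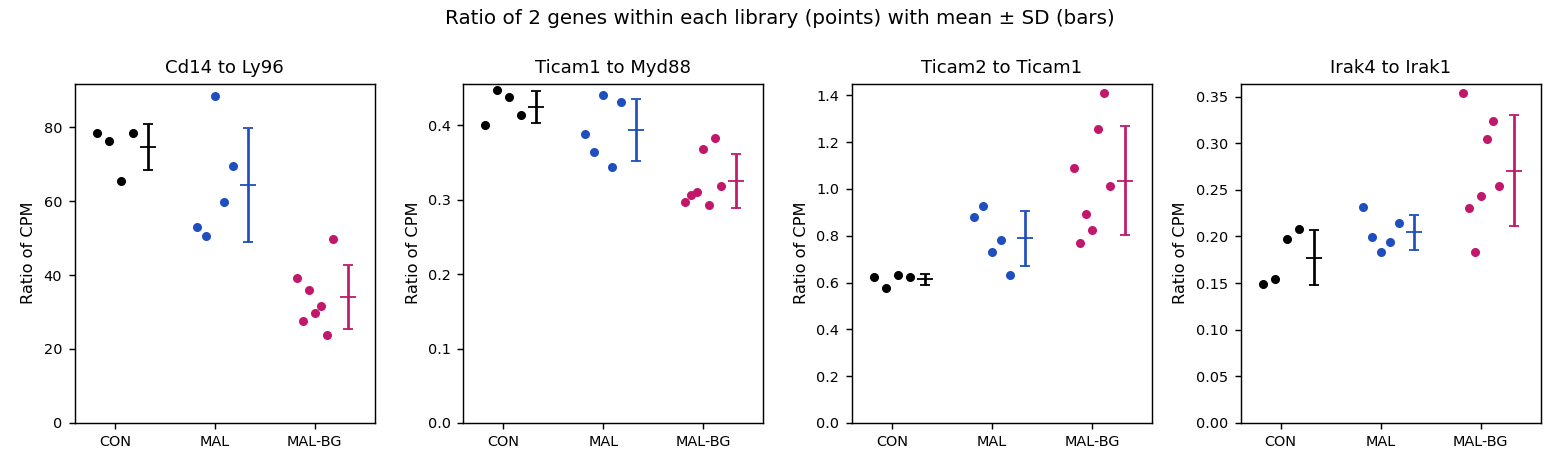
Ratio of the CPM of 2 genes within each library (y axis, starting at 0) by group (x axis), with the mean and SD beside the points. The 7 MAL-BG libraries have Cd14 to Ly96 ratios of 23.8 to 49.8, below every CON and MAL library, and Ticam2 to Ticam1 ratios above every CON library.

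Irak4 (chr15:94543643-94581815, plus strand) is the kinase that joins Myd88 first and passes the signal to Irak1 and Irak2. It was measured at 30.0, 21.8, 26.9 and 25.8 CPM in CON replicates 1 to 4 and at 36.8, 30.4, 26.7, 36.2 and 30.5 CPM in MAL replicates 1 to 5. In MAL-BG it ranged from 25.6 to 41.7 CPM with a median of 37.2 CPM. Of the 7 MAL-BG libraries, 6 were above every CON library, and replicate 3 at 25.6 CPM fell among them. The log2 fold change was 0.49 (SE 0.140, adjusted p = 0.00921, edgeR) for MAL-BG against CON. With fold set aside, 45.1% of all genes tested passed in that comparison (19.8% higher). Without CON replicate 2 the adjusted p was 0.0515, and without CON replicate 1 and MAL replicate 4 together the log2 fold change was 0.64 (adjusted p = 0.00404), a DEG. Against MAL it was 0.20 (95% interval -0.08 to 0.47, adjusted p = 0.227), and MAL against CON was 0.30 (95% interval -0.02 to 0.61, adjusted p = 0.999). Exons of Irak4 overlap Twf1 on the opposite strand over 395 bp.

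The stretch upstream of the Irak4 start is printed for comparison with Ticam1, since Irak4 differed in the other direction. It lies at chr15:94543410-94543612 on GRCm38.p6, plus strand, and none of the searched motifs was found in it, so it holds no capitals. The last 47 bases before the start are not printed for the same reason.
Irak4: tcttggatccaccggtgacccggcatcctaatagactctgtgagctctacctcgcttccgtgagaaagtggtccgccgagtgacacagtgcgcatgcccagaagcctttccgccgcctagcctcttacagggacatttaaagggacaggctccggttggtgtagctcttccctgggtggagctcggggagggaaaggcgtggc
The motifs were GAGGAA, the kappaB letters GGGA and CC with any 4 bases between them, the AP-1 letters TGANTCA, the interferon response letters GAAA repeated after any 2 bases, and the CRE letters TGACGTCA, each on both strands and allowed to overlap one another. Windows of 7 of the 10 genes were searched. Cd14, Ly96 and Ticam2 were not among them, so nothing can be said of the letters before these genes. The kappaB letters, found in 17.6% of all windows, occurred before Traf6 and in both windows of Irak1. For Irak3, which also had 2 windows, they occurred in only 1. GAGGAA occurred at 2 places before Traf6, which was not a DEG. The interferon response letters, found in 2.98%, occurred 40 bases before the Myd88 start. The AP-1 letters (6.75% of windows) and the CRE letters (1.55%) occurred before none of the 7, which says only that these letters are not in those windows.

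Irak1 (chrX:74013914-74023918, minus strand), a kinase that binds Traf6, ranged from 124 to 201 CPM in CON, 142 to 187 CPM in MAL and 113 to 180 CPM in MAL-BG. MAL-BG differed by a log2 fold change of -0.12 from CON (95% interval -0.42 to 0.18, adjusted p = 0.507) and of -0.18 from MAL (95% interval -0.46 to 0.10, adjusted p = 0.277). Irak2 (chr6:113638467-113695026, plus strand), the related kinase of the same step, ranged from 89.9 to 152 CPM in CON, 95.2 to 123 CPM in MAL and 67.1 to 137 CPM in MAL-BG. The groups overlapped for both genes. The log2 fold change of Irak2 was -0.18 (95% interval -0.58 to 0.22, adjusted p = 0.454) against CON and -0.17 (95% interval -0.54 to 0.20, adjusted p = 0.447) against MAL. The ratio of Irak2 CPM to Irak1 CPM ran from 0.674 to 0.782 in CON and 0.653 to 0.781 in MAL, and from 0.417 to 1.07 in MAL-BG, where it spread to both sides. The ratio of Irak4 to Irak1 ran from 0.149 to 0.208 in CON, 0.183 to 0.232 in MAL and 0.183 to 0.354 in MAL-BG. The exons of Irak1 also hold the microRNA genes Mir718 and Mir5132 on the same strand.

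Irak3 (chr10:120141648-120202130, minus strand) was measured at 5.53, 5.38, 8.51 and 9.08 CPM in CON replicates 1 to 4. MAL replicates 1 to 5 held 11.5, 8.80, 10.2, 9.67 and 10.03 CPM, and MAL-BG ranged from 4.60 to 13.1 CPM with a median of 5.44 CPM. Of the 7 MAL-BG libraries 6 lay below every MAL library, and replicate 5, at 13.1 CPM, lay above them all. The log2 fold change against MAL was -0.58 (SE 0.2498, adjusted p = 0.0704, edgeR), and without MAL-BG replicate 5 it was -0.84 (adjusted p = 0.00328), a DEG. Against CON it was -0.08 (95% interval -0.65 to 0.49, adjusted p = 0.824), an estimate of uncertain sign, since several alternatives turned it. MAL-BG replicate 5 also held 13400 CPM of neutrophil genes, where the other MAL-BG libraries held 584 to 3268 CPM, and 1338 CPM of monocyte genes, where they held 311 to 590 CPM. The part of those cells in the Irak3 value was not tested. Irak3 exons overlap Tmbim4 over 192 bp on the opposite strand.

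Traf6 (chr2:101678429-101701669, plus strand), the ubiquitin ligase downstream of the Irak kinases, ranged from 29.4 to 47.5 CPM in CON, 27.4 to 41.0 CPM in MAL and 34.0 to 47.1 CPM in MAL-BG. CON replicate 1 was the highest of all libraries, and the groups overlapped. Its estimate on the log2 scale was 0.19 (95% interval -0.11 to 0.49, adjusted p = 0.297) against CON and 0.16 (95% interval -0.13 to 0.44, adjusted p = 0.355) against MAL.

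**Figure D4:**
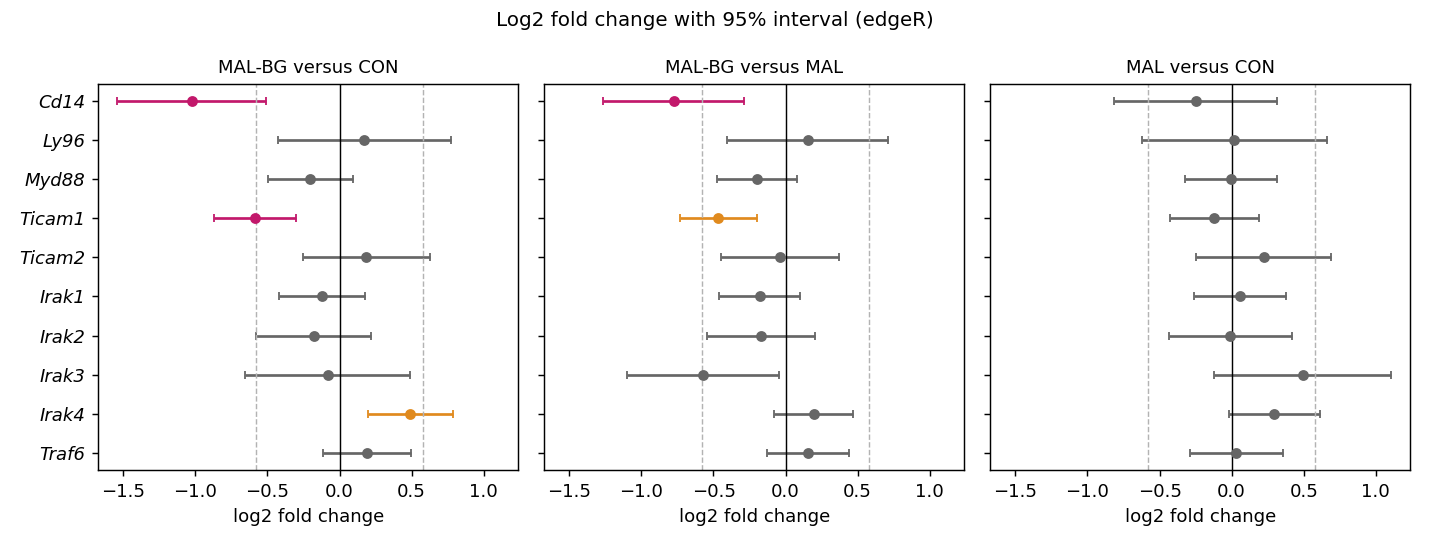
Log2 fold change (x axis) of the 10 genes (y axis) with its 95% interval in the 3 comparisons. Pink points passed adjusted p and fold, orange points passed adjusted p alone, grey points passed neither, and dashed lines mark a log2 fold change of 0.58 either way. Cd14 and Ticam1 are the DEGs against CON and Cd14 against MAL, and all 10 intervals of MAL against CON include 0.

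The comparison of MAL with CON asks what the diet did without bacteria. None of the 10 genes passed, and the adjusted p was 0.999 for each. Over all genes tested, edgeR and DESeq2 each found 0 DEGs, and 212 genes (1.46%) had an unadjusted p under 0.05, none of them among these 10. The estimates ran from -0.25 for Cd14 (95% interval -0.81 to 0.31) to 0.49 for Irak3 (95% interval -0.12 to 1.11). The intervals leave room for changes larger than the threshold in Cd14, Ly96, Ticam2, Irak3 and Irak4. MAL-BG against CON and MAL-BG against MAL share the MAL-BG libraries, so their values are not independent of each other.

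The wider pathway was read from 66 genes in 7 lists, all of which passed the filter. Of these, 15 were DEGs between MAL-BG and CON (8 higher and 7 lower, 22.7%) and 17 between MAL-BG and MAL (7 higher and 10 lower, 25.8%), beside the 33.1% and 30.4% of all genes tested. Their median log2 fold change was -0.02 against CON, where that of all genes was -0.04.

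Among 12 Toll-like receptors, 2 rose, 1 fell and 9 were not DEGs between MAL-BG and CON. Tlr12 rose from 36.8 ± 13.6 CPM in CON (SD, n = 4) to 115 ± 30.6 CPM in MAL-BG (SD, n = 7), a log2 fold change of 1.64 (SE 0.261, adjusted p = 0.000175). Tlr8 fell from 4.32 ± 1.35 to 1.01 ± 1.11 CPM, a log2 fold change of -2.06 (SE 0.647, adjusted p = 0.0162). The other receptor that rose was Tlr3, which signals through Ticam1, with a log2 fold change of 1.084 (adjusted p = 3.36e-05), and it is named after its value was seen. Tlr4, the receptor that Cd14 and Ly96 serve, was at 41.0 ± 10.99 CPM in CON and 52.0 ± 18.1 CPM in MAL-BG (log2 fold change 0.34, adjusted p = 0.223). Tlr2, which also takes ligands from Cd14, was at 217 ± 61.3 and 158 ± 27.4 CPM (log2 fold change -0.46, adjusted p = 0.0404), lower by adjusted p with a fold under the threshold.

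Of 8 other adaptors and co-receptors, 1 rose and 2 fell against CON. Lbp, the protein that delivers lipopolysaccharide to Cd14, fell from 107 ± 50.6 to 21.8 ± 11.8 CPM (log2 fold change -2.29, adjusted p = 0.00113). Ly86, which encodes MD-1, a relative of MD-2, rose from 560 ± 104 to 935 ± 125 CPM (log2 fold change 0.74, adjusted p = 0.00296). Tirap, which brings Myd88 to the membrane, had a log2 fold change of 0.43 (adjusted p = 0.0342), under the fold threshold. Of 5 genes of receptor trafficking and folding, 3 rose and none fell, led by Hsp90b1, a chaperone of Toll-like receptors, with a log2 fold change of 0.92 (adjusted p = 0.00168).

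Of 19 genes of the ubiquitin and kinase relay, 0 rose and 1 fell against CON, which was Peli3, a ubiquitin ligase of the Irak kinases (log2 fold change -1.42, adjusted p = 0.00215). Peli1, its relative, had a log2 fold change of 0.48 (adjusted p = 0.00503), under the fold threshold. Of 6 transcription factors in the same comparison, Rel, a subunit of NF-kappaB, fell with a log2 fold change of -2.72 (adjusted p = 6.32e-06) and none rose. Of 10 negative regulators, 1 rose and 2 fell. Sigirr, a receptor that dampens the pathway, rose by a log2 fold change of 0.87 (adjusted p = 0.0383), and Tnfaip3, which encodes the ubiquitin editing enzyme A20, fell with -2.49 (adjusted p = 5.75e-06). Tollip, which binds the Irak kinases, had a log2 fold change of 0.40 (adjusted p = 0.00780), under the fold threshold. Of 6 receptors of the interleukin-1 family, 1 rose against CON, which was Il1rl1, the receptor of interleukin-33 (log2 fold change 0.76, adjusted p = 0.0147), and none fell.

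Against MAL, the comparison that differs by the bacteria, the lists gave these counts. The Toll-like receptors had 2 higher and 1 lower, the trafficking and folding genes 3 higher, the relay 1 lower, the transcription factors 1 lower and the negative regulators 1 higher and 2 lower. Among the other adaptors and co-receptors 1 rose (Ly86) and 4 fell, which were Lbp, Sarm1, Pik3ap1 and Cd36. Lbp had a log2 fold change of -1.88 (adjusted p = 0.00333) there. Among the interleukin-1 family receptors none rose and Il1rl2 fell (log2 fold change -1.36, adjusted p = 0.0461), while Il1rl1 was at 0.49 (adjusted p = 0.0731). Sarm1, Pik3ap1, Cd36 and Il1rl2 are named after their values were seen.

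**Figure D5:**
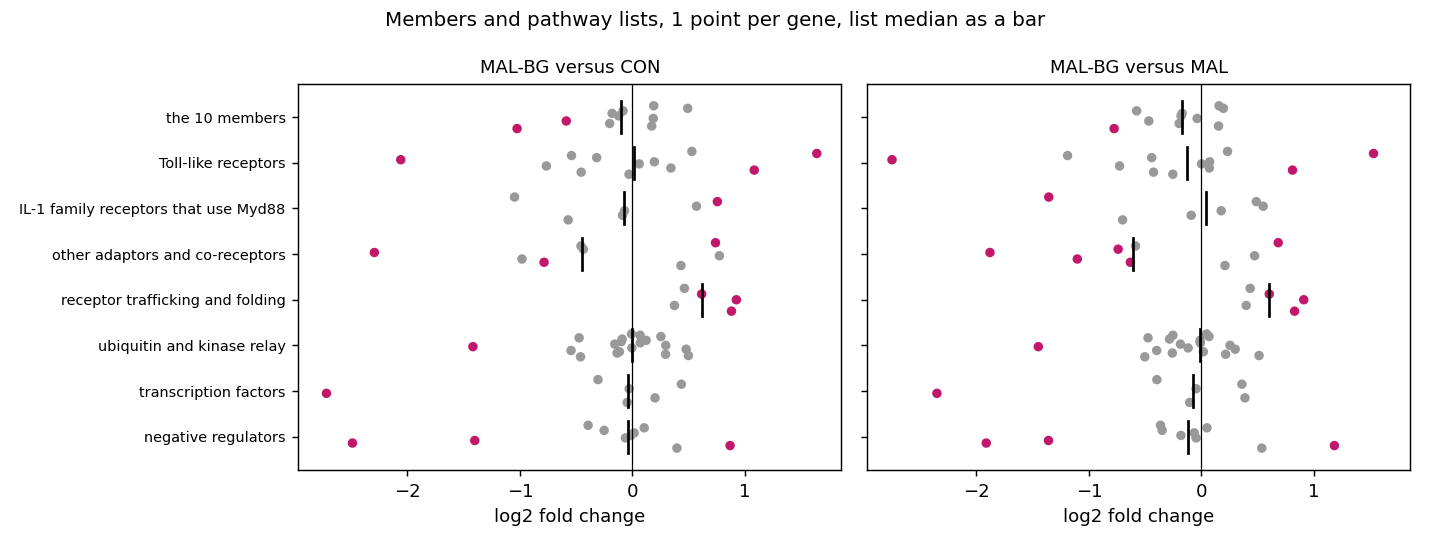
Log2 fold change (x axis) of the 10 genes and of the 66 genes in 7 pathway lists (y axis), 1 point per gene with the list median as a bar, for MAL-BG against CON (left) and against MAL (right). Pink points are DEGs; only 2 of the 10 genes in the top row are DEGs against CON, and the trafficking and folding genes all lie to the right of 0.

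For each of the 10 genes, the gene whose log2 CPM over the 16 libraries was most like it was sought among all genes tested. The libraries include the differences between groups and share depth and cell makeup, so the values of Pearson's r are descriptions. The closest gene to Cd14 was Tlr2 (r = 0.941), and that to Ticam1 was Tgif1 (r = 0.952). Those to Irak4, Irak1, Irak2 and Irak3 were Tifab (r = 0.962), Fam193b (r = 0.968), Rnf166 (r = 0.964) and Foxn2 (r = 0.89). For Ticam2 it was Il16 (r = 0.966), for Myd88 Phka2 (r = 0.925), for Traf6 Maml3 (r = 0.908) and for Ly96 Fmnl3 (r = 0.904). Among the 10 themselves the highest r was between Cd14 and Ticam1 (0.872), followed by Ticam2 and Irak2 (0.83) and Cd14 and Myd88 (0.814). With each group's mean taken out, Ticam2 and Irak2 (0.907) and Ly96 and Irak4 (0.857) led, and Cd14 and Ticam1 stood at 0.68.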

How the data were processed

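CD11b+ cells were enriched with magnetic beads from brain (cortical tissue per the labels, whole cerebra per the methods of the study), and stranded poly(A) libraries were sequenced as paired ends. The authors aligned reads to GRCm38.p6 with STAR and counted them with HTSeq, and the deposited values are raw counts per gene. Whether counting used strand is not given in the sources used here. Rows with more than 10 counts in at least 4 of 16 libraries were kept (14565 of 24421). Counts were scaled by TMM and tested with edgeR 4.0.16 (R 4.3.3) in a single fit over the 3 groups, with Benjamini-Hochberg adjustment over all genes tested, and CPM are per 1000000 counts after TMM scaling. Exon lengths came from GENCODE M21 and promoter letters from RefSeq (GRCm38.p6). The scripts were tested on simulated data. DESeq2 1.42.0, other scalings and filters, thinned libraries, offsets for length and GC content, and leaving out each library were tried. The study's batch term was not used, since the batch of a library is not named in the sources used here. Labels give 1 library per sample, and p-values reflect the spread between libraries; the least different pair of replicates still differed beyond sampling noise (chi-square per degree of freedom 9.98). The members and lists were chosen with earlier results of these data known. Named from each pathway list were the DEG with the largest rise and the one with the largest fall between MAL-BG and CON, with Tlr2, Tlr4, Tirap, Tollip and Peli1.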

Additional observations from a re-analysis of the deposited data

Results flagged for a closer look

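In 4 of the 30 sets of values (10 genes in 3 groups) a single library stood apart from the rest of its group by Dixon's test, where chance would give about 1 in 20. Cd14 was at 1308 CPM in CON replicate 1, where the other CON libraries held 637 to 742 CPM. Myd88 was at 141 CPM in MAL replicate 4, where the others held 94.5 to 107 CPM. Irak3 was at 13.1 CPM in MAL-BG replicate 5, where the others held 4.60 to 8.02 CPM. Irak4 was at 25.6 CPM in MAL-BG replicate 3, where the others held 34.8 to 41.7 CPM.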

How the results depend on the processing

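Cd14 stayed a DEG against CON under every alternative (log2 fold change -1.27 to -0.67). Ticam1 did not: its value was -0.57 with RLE factors, DESeq2 and no filter, each of which left 1 of the 10 genes called, and -0.40 (adjusted p = 0.0683) with length and GC offsets scaled by mean log2 CPM. Against MAL, 2 were called with no fold threshold (Cd14 and Ticam1) and with length and GC offsets (Cd14 and Irak3). Leaving out single libraries gave 1 to 2 calls against CON, 0 to 2 against MAL and 0 to 0 between MAL and CON. Leaving out MAL-BG replicates 3 and 5 gave 1 call against CON (Cd14) and 2 against MAL (Cd14 and Irak3). Leaving out CON replicate 1 and MAL replicate 4 gave 2 against CON, which were Cd14 and Irak4 in place of Ticam1 (-0.42), and 0 against MAL; both pairs were chosen after seeing the data.

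Scaling by mean log2 CPM moved the median of all genes to 0.215 against CON and 0.204 against MAL, and the share of DEGs that were higher from 34.4% and 33.4% to 58.4% in both. Under it Irak4 (0.75) and Traf6 (0.60) were called against CON. Signs turned there for Irak1 (0.10), Irak2 (0.027) and Irak3 (0.072) against CON, for Ticam2 (0.24), Irak1 (0.021) and Irak2 (0.017) against MAL, and for Ly96 (-0.017), Myd88 (0.037) and Irak2 (0.010) between MAL and CON. With offsets alone they turned for Ly96 (-0.20 and -0.16 against CON and MAL, -0.038 between MAL and CON), Ticam2 against MAL (0.0017) and Myd88 between MAL and CON (0.013). Thinning gave Irak3 0.013 against CON. Upper-quartile factors gave Myd88 0.0028 between MAL and CON, and fitting only those groups gave Myd88 0.012 and Irak2 0.0054. Without CON replicate 1 and MAL replicate 4, Irak1 was 0.13 and Irak2 0.094 against CON, Ticam2 was 0.069 against MAL, and Myd88 was 0.033 and Irak2 0.16 between MAL and CON. Without MAL-BG replicates 3 and 5, Ticam2 was 0.015 against MAL. None of the values whose sign turned passed the test; apart from the constructions named, the cause was not tested.

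Single left-out libraries turned Irak1 (-0.21 to 0.031) and Irak3 (-0.35 to 0.062) against CON, Ticam2 (-0.20 to 0.068) against MAL, and between MAL and CON Cd14 (-0.46 to 0.020), Ly96 (-0.22 to 0.25), Myd88 (-0.11 to 0.10), Irak1 (-0.023 to 0.22), Irak2 (-0.10 to 0.17) and Traf6 (-0.046 to 0.20). No paired analysis was possible because the numbers in the column names match no sample title, so no replicate number or batch could be tied to a library. Irak3 had the lowest counts (58 to 242 per library), and Ly96 had the largest SE in each comparison (0.266 to 0.305).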
